A study of Homo sapiens with 3 samples.

Results

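The classical cadherins described here are CDH1 (E-cadherin), CDH2 (N-cadherin) and CDH11 (OB-cadherin), read in 3 single-cell RNA libraries that list 18692 gene symbols between them. The 3 genes were chosen by symbol. CDH1 was not listed for any library, CDH2 was listed for 1 and CDH11 for all 3. H460 cells are a long-established culture of human large-cell lung carcinoma. The study compared parental H460 cells with mdR-H460 and ldR-H460, which the labels describe as mid-term and long-term dR-H460 lines derived from it. The labels also describe a reprogramming culture for cancer cells, with a feeder layer of irradiated human fibroblasts and Pluriton medium. Their sample descriptions carry a different code for each culture, which the labels do not explain, so no agent, allele or time is given here for mdR-H460 or ldR-H460. Each culture gave 1 droplet library of 3′ transcript ends.

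Cadherins are calcium-dependent adhesion proteins that join neighbouring cells at adherens junctions. Their cytoplasmic tails bind beta-catenin or plakoglobin and p120-catenin, and alpha-catenin links that complex to actin. CDH1 is typical of epithelia, while CDH2 and CDH11 are typical of neural and mesenchymal cells, and carcinomas that take on mesenchymal features often express less of the first and more of the others. CDH1 and CDH2 are type I cadherins and CDH11 is a type II cadherin, a class with a different binding site in its outermost domain.

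The libraries held 4531 H460, 5151 mdR-H460 and 4956 ldR-H460 cells, 14638 in all. Total UMIs (unique molecular identifiers, one for each captured transcript) were 66192074, 66624830 and 60468481, and median UMIs per cell were 14685, 11736 and 12342.5 in the same order. Between 24 and 36 cell barcodes were shared by each pair of libraries. KRT8 and KRT18, keratins of simple epithelia, were listed at 459 and 1079 CPM (UMIs per 1000000 of the library) in H460, and at higher values in the derived lines. The other general epithelial markers read were KRT7, KRT19 and EPCAM. KRT7 had 57.8, 184 and 108 CPM in the same order. KRT19 went the other way, with 1696, 194 and 40.3 CPM, and EPCAM had only 23, 18 and 8 UMIs. SFTPA1, SFTPB and SFTPC, which define the surfactant-producing lung epithelium, were not listed for any library. Of the 12 lung epithelial markers read, AGER had 12, 13 and 18 UMIs in the same order. NKX2-1 had 3 UMIs in H460 and 8 in mdR-H460, and the other markers were unlisted. With 1 library per group there is no replicate check and no test. Differences describe these libraries, and the 95% intervals in brackets cover counting error only.

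The CDH2 start region is shown because CDH2 was seen in the parental library alone. Of the 3 genes, 1 was found in the RefSeq promoter table (GRCh38.p14). Its upstream promoter lies at chr18:28177081-28177380 on the minus strand, 250 bases before and 50 after the start, and CG dinucleotides, the usual sites of DNA methylation, are in capitals.
CDH2: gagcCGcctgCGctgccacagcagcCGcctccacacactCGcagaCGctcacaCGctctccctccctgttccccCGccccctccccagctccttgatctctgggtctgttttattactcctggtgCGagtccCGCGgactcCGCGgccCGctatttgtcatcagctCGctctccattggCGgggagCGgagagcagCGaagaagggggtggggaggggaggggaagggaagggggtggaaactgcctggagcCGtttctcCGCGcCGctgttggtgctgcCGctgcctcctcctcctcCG
This stretch holds 23 CG dinucleotides and is 67% G or C, against a median of 14 CG dinucleotides over 35116 promoters of the same length. Of those promoters 64.2% have fewer CG dinucleotides than this stretch. The table holds a second CDH2 start at chr18:28036592-28036891, whose window has 4 CG dinucleotides and is 40.7% G or C. The libraries do not tell which start was used. The upstream window has no match to CACCTG or its reverse complement CAGGTG, a core bound by ZEB and SNAI repressors, and the second has none either. Of all those promoters 20.6% contain a match. Methylation was not measured.

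CDH1 spans chr16:68737225-68835548 on the plus strand (GRCh38, GENCODE 29). Since it was not listed, no level, share of cells or co-detection can be given for it. The tables list almost only symbols seen in at least 3 cells, 17329 of 17414 in H460, 17053 of 17167 in mdR-H460 and 16639 of 16837 in ldR-H460. CDH3 (P-cadherin), its neighbour on chromosome 16, was not listed either. The nearest measured neighbour was TANGO6, which starts 8056 bases beyond CDH1 and had 4.29 CPM in H460, 4.34 in mdR-H460 and 4.61 in ldR-H460. Among 29 measured genes within 1 Mb of CDH1, the median log2 ratio to H460 was -0.08 in mdR-H460 and -0.09 in ldR-H460. WWP2, a ubiquitin ligase, was the single gene of the 29 that differed by 2-fold or more, at 6.50 CPM in H460 and 3.03 CPM in mdR-H460.

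CDH2 (chr18:27950966-28177446, minus strand) was rare in H460 and unlisted in both derived lines. H460 held 39 CDH2 UMIs, 0.589 CPM (0.419 to 0.805), in 37 cells, or 0.817% (0.576 to 1.12) of the library. Of these cells 35 had 1 UMI and 2 had 2 UMIs. After each cell was thinned to 5000 UMIs, 12 of 3850 H460 cells held a CDH2 UMI, 0.312% (0.161 to 0.544). No cell type that should lack CDH2 was available within the culture to set the level given by free RNA. Of 12 genes of cell types not expected in the cultures, 4 were listed for H460. The globin gene HBA1 had 50 UMIs, 0.755 CPM (0.561 to 0.996), in 43 cells, more than CDH2. HBA2 had 20 UMIs, CD79A 6 and PECAM1 3, fewer than CDH2. The source of these UMIs was not tested. An unlisted gene was taken to have at most 3 UMIs in a library, which is 0.0450 CPM in mdR-H460 and 0.0496 CPM in ldR-H460. On that floor the CDH2 level of H460 was at least 13.1-fold above that of mdR-H460, and the bound for ldR-H460 was 11.9-fold. No gene within 1 Mb of CDH2 or of CDH11 reached 1 CPM in any library.

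CDH11 (chr16:64943753-65126112, minus strand), a cadherin known from osteoblasts and fibroblasts, was abundant in H460, almost undetected in mdR-H460 and intermediate in ldR-H460. H460 held 11023 CDH11 UMIs, 167 CPM (163 to 170). mdR-H460 held 8 UMIs, 0.120 CPM (0.0518 to 0.237). ldR-H460 held 727 UMIs, 12.0 CPM (11.2 to 12.9). The 3 intervals did not overlap, and the order was H460, ldR-H460, mdR-H460. Relative to the parental library CDH11 was 1387-fold (704 to 3213) lower in mdR-H460, and 13.9-fold (12.8 to 15.0) lower in ldR-H460. Between the derived lines it was 100.1-fold (50.5 to 233) higher in ldR-H460.

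These ratios were read against all genes that reached 1 CPM in either library of a pair. In mdR-H460 against the parental cells, 12002 genes entered. Of these 10.1% were lower by 2-fold or more and 2.9% higher, and CDH11 had the largest ratio of the lower ones. In ldR-H460 against the parental cells, 12151 genes entered, 10.9% lower and 5.43% higher by the same rule, and CDH11 was number 166 by size among the lower ones. Between the derived lines, 11799 genes entered, 5.14% higher and 4.42% lower in ldR-H460, and CDH11 was number 2 among the higher ones. These ranks hold with unlisted genes set to 3 UMIs. For 33, 48 and 4 genes in the direction of CDH11 the ratio is then only a bound, and the true ratio of such a gene may be larger. The median log2 ratios over all these genes were -0.17, -0.13 and 0.08 for the 3 pairs. The comparisons share libraries, so their values are given side by side and were not compared further.

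**Figure D1:**
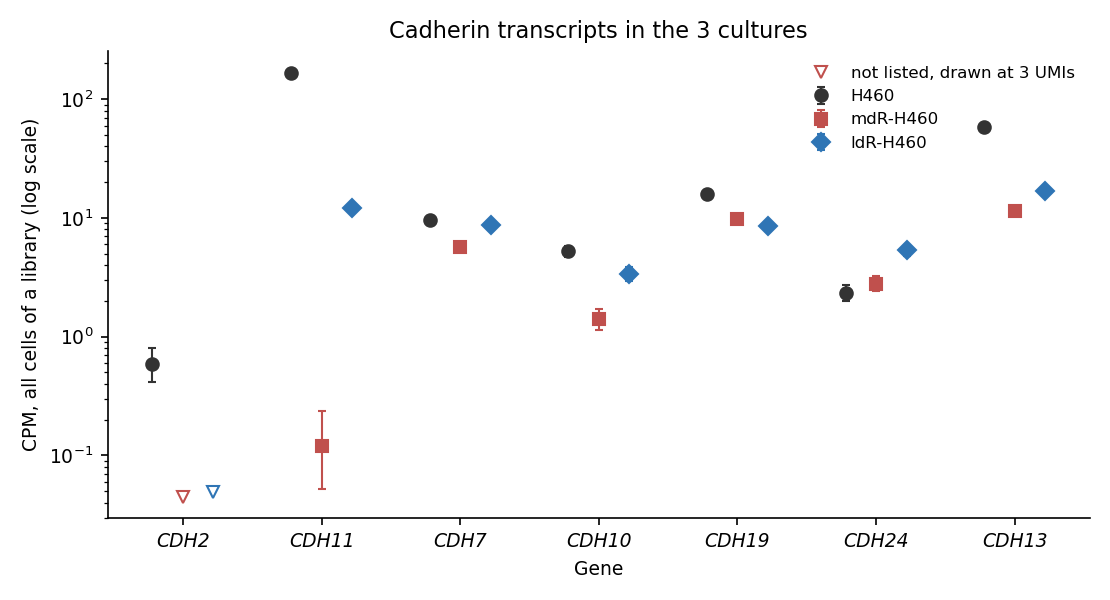
Level of each cadherin in CPM on a log axis, summed over all cells of H460 (circles), mdR-H460 (squares) and ldR-H460 (diamonds), with 95% counting intervals. Open triangles mark unlisted genes, drawn at 3 UMIs. CDH11 runs from 167 CPM in H460 to 0.120 CPM in mdR-H460, while CDH7, CDH19 and CDH24 differ from H460 by at most 2.27-fold. CDH10 is 3.73-fold and CDH13 5.11-fold lower in mdR-H460.

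The share of cells with CDH11 followed the same order. A CDH11 UMI was found in 3439 H460 cells, 75.9% (74.6 to 77.1), in 7 mdR-H460 cells, 0.136% (0.0547 to 0.280), and in 472 ldR-H460 cells, 9.52% (8.72 to 10.4). At 5000 UMIs per cell the shares were 54.6% of 3850 H460 cells, 0.0515% of 3880 mdR-H460 cells and 5.00% of 4521 ldR-H460 cells. Thinning left out 681, 1271 and 435 shallower cells. The share in mdR-H460, at a median depth of 11736 UMIs, is that of a separate library. Free RNA in a library comes from its own cells, so this share sets no free-RNA level for H460 or ldR-H460. That level was not measured.

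In H460 the transcript was spread over most of the culture. The largest count in a cell was 14 UMIs, and the top 1% of cells held 4.80% of all CDH11 UMIs. If every cell had the library's level and differed in depth alone, 937 cells would have no CDH11 UMI, and 1092 had none. In thinned H460 cells the variance of the CDH11 count was 1.26 times its mean. The level was lower in deeper H460 cells, from 230 CPM (215 to 245) in the shallowest 25% of cells to 194, 173 and 140 CPM in the next 3 depth groups of the same size, while the share with a UMI rose from 42.5% to 91.2%.

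In ldR-H460 the transcript was concentrated in few cells. There 314 cells had 1 CDH11 UMI, 105 had 2, 27 had 3, and the highest count was 8. An even spread given depth would put 612 cells at 1 UMI, 55.7 at 2 or more and 3.45 at 3 or more, whereas 158 cells had 2 or more and 53 had 3 or more. The 50 cells with most CDH11, 1% of the library, held 26.7% of its CDH11 UMIs. This share also depends on how rare a gene is, so it was not compared with that of H460. In ldR-H460 it was 33.7% for ZEB2 and 17.9% for CDH19, whose thinned variances were 1.06 and 1.03 times their means. The thinned variance of CDH11 was 1.50 times its mean. The ldR-H460 level by depth was 17.3 CPM (14.3 to 20.7) in the shallowest group and 12.6, 10.7 and 11.1 CPM in the others. CDH13 (T-cadherin), at 17.0 CPM in the same library, had 23 cells with 3 or more UMIs against 9.22 under an even spread.

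**Figure D2:**
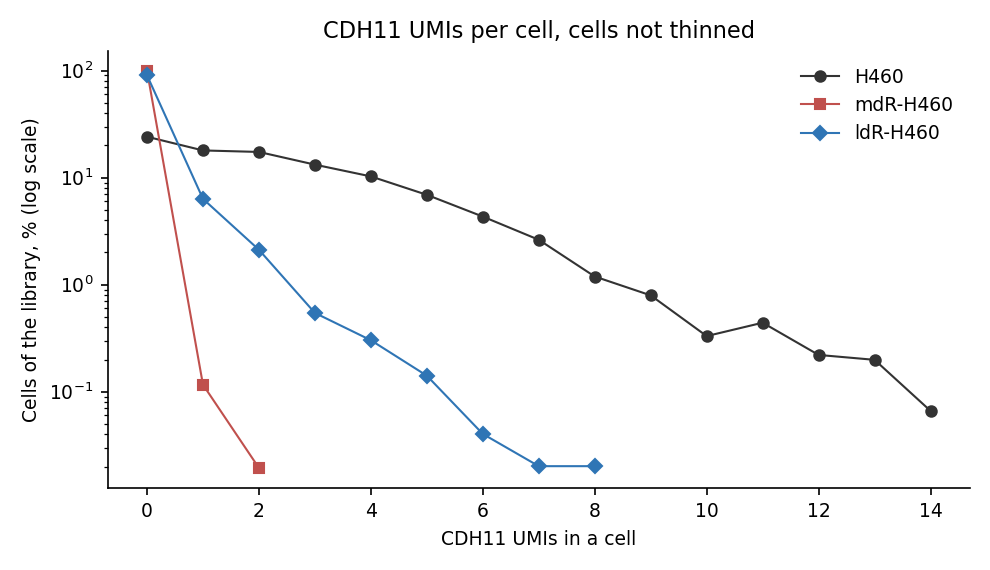
Share of cells in percent (log axis) at each CDH11 UMI count, for the 3 libraries with all cells at their full depth. H460 reaches 14 UMIs in a cell, ldR-H460 reaches 8 and mdR-H460 stops at 2.

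In mdR-H460, 6 of the 7 CDH11 cells had 1 UMI and 1 cell had 2. An even spread would put 7.98 cells at 1 UMI. None of the 7 cells carried a barcode shared with another library. All 7 held KRT19, between 2 and 15 UMIs each, and KRT19 was found in 54.7% of mdR-H460 cells without CDH11. KRT19 stood at 923 CPM in the 6 cells with 1 CDH11 UMI and 547 CPM in the cell with 2, against 193 CPM in cells without. The 20 genes highest in H460 over mdR-H460 summed to 111 CPM (40.6 to 241) in those 6 cells. That sum rests on 6 UMIs, and cells without CDH11 had 13.7 CPM (12.8 to 14.6). Of the 7 cells, 4 held no UMI of this set, the cell with 2 CDH11 UMIs among them. With 7 cells nothing further can be read from their makeup.

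CDH2 and CDH11 could be compared in the same cell in H460 alone. Of the 12 thinned cells with CDH2, 6 also held CDH11, 50% (21.1 to 78.9), against 54.7% (53.1 to 56.2) of the cells without CDH2. The product of the 2 shares predicts 6.56 such cells. The interval is too wide to tell a link from none at this depth. Other cadherin superfamily genes were read in H460 cells with and without CDH11. FAT1, an atypical cadherin, was found in 10.3% (9.002 to 11.6) of cells with CDH11 and 7.96% (6.73 to 9.33) of cells without. CDH10 was found in 3.37% (2.64 to 4.24) and 2.46% (1.79 to 3.30), and PCDH7 in 2.23% (1.65 to 2.96) and 1.55% (1.02 to 2.24). CDH13 was found in 27.4% (25.5 to 29.3) of the first and 25.8% (23.8 to 28.0) of the second, and CDH19 in 8.32% (7.17 to 9.58) and 7.67% (6.47 to 9.02). Other genes went the other way. CDH24 was found in 0.951% (0.582 to 1.46) with CDH11 and 1.20% (0.746 to 1.83) without. CDHR3 was found in 0.285% (0.105 to 0.620) and 0.515% (0.236 to 0.976), and DSG2 in 8.98% (7.80 to 10.3) and 9.11% (7.80 to 10.6). For each gene named here the intervals with and without CDH11 overlapped.

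Within thinned H460 cells, 2104 had CDH11 and 1746 lacked it, and 4373 genes reached 20 CPM on one side. The differences were small for most genes. ADGRD1, an adhesion G protein-coupled receptor, had 79.1 CPM in cells with CDH11 and 51.9 CPM in the rest. It was 1.52-fold (1.36 to 1.71) higher. RAPH1 (lamellipodin, which acts in lamellipodia) was 1.56-fold (1.33 to 1.85) higher, and B4GALT1, OLFML2A, LCN1 and SCARA5 between 1.36-fold and 1.53-fold. In the other direction S100A8, a calcium-binding protein of inflamed epithelia, had 69.3 CPM in cells with CDH11 and 196 CPM without, 2.82-fold (2.59 to 3.08) lower. Its partner S100A9 was 1.96-fold lower and the stress-response factor DDIT3 2.13-fold lower. FOS, GDF15 and LY6K were 1.62-fold to 1.83-fold lower. Counted from the other side, the 183 H460 cells with 3 or more S100A8 UMIs held 117 CPM of CDH11 (105 to 129), against 169 CPM (166 to 172) in the other 4348.

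In H460 the CDH11 level was lower in cells with more UMIs of cell-cycle genes. Thinned cells were put into 4 groups of like size by their UMIs of 52 G2/M genes. From the group with fewest to that with most, CDH11 went from 215 CPM (202 to 228) to 198, 176 and 132 CPM (122 to 142). By 43 S phase genes it went from 205 to 186, 165 and 164 CPM. In ldR-H460 the G2/M groups held 14.5, 12.0, 12.2 and 12.4 CPM, and the S phase groups 17.3, 11.9, 11.3 and 10.6 CPM. Cells tied at a boundary were placed by table order. The part of the cell cycle in the CDH11 values was not tested.

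In ldR-H460, 226 thinned cells had CDH11 and 4295 did not. KRT19, a keratin of simple epithelia, had 127 CPM in cells with CDH11 and 42.6 CPM in those without, a ratio of 2.99 (2.49 to 3.57), and 1696 CPM in H460. FGF13, an intracellular fibroblast growth factor homologue, had 21.2 and 6.19 CPM, 3.43-fold (2.12 to 5.33) higher. ZG16B was 3.86-fold higher, GSTO2 2.69-fold, COL8A1, a short-chain collagen, 2.60-fold, and LGALS3, the galectin-3 gene, 1.97-fold. All 6 genes were also higher in H460 than in ldR-H460 as whole libraries. Lower in cells with CDH11 were IL18, an interleukin of epithelial and myeloid cells, with 13.3 against 35.0 CPM (2.63-fold, 1.59 to 4.73), SPINK6 (2.46-fold) and KRT81 (2.32-fold), a hair keratin. SMOX, NEFL and TRIM16 were 1.59-fold to 1.86-fold lower. These 6 were lower in H460 than in ldR-H460.

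**Figure D3:**
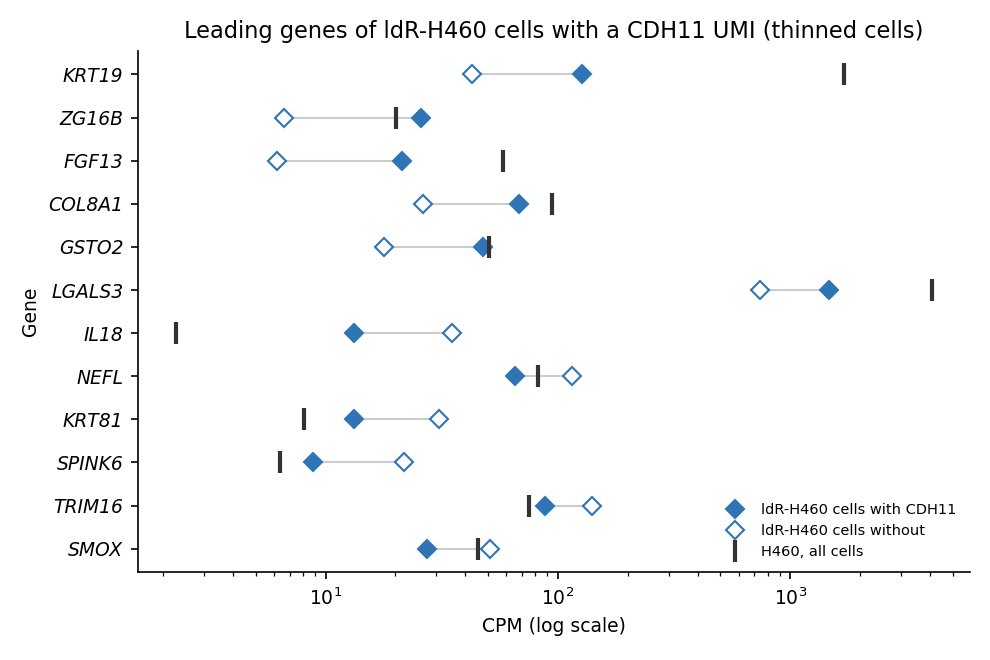
CPM on a log axis of the 12 leading genes in thinned ldR-H460 cells with CDH11 (filled diamonds) and without it (open diamonds), with the whole H460 library as vertical bars. KRT19 reaches 127 CPM in cells with CDH11, against 42.6 CPM without and 1696 CPM in H460.

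KRT19 was detected in 27.0% (21.3 to 33.3) of thinned ldR-H460 cells with CDH11 and in 12.4% (11.4 to 13.4) of those without. Counted from KRT19, the 1003 ldR-H460 cells with a KRT19 UMI held 23.4 CPM of CDH11 (20.8 to 26.1), and the other 3953 held 8.86 CPM (8.03 to 9.75). Median depths were 12817 and 12231 UMIs. In thinned ldR-H460 cells CDH13 was found in 12.8% (8.76 to 17.9) with CDH11 and 8.24% (7.44 to 9.10) without, and CTNNA1 (alpha-catenin) in 24.3% (18.9 to 30.5) and 19.0% (17.9 to 20.2). The catenin genes CTNNB1 and JUP went the other way. CTNNB1 was found in 5.31% (2.77 to 9.09) and 8.08% (7.28 to 8.93), and JUP in 5.31% (2.77 to 9.09) and 6.29% (5.58 to 7.05). CELSR1, CELSR2 and PCDH7 were found in none of the cells with CDH11 and in 0.698%, 0.815% and 0.326% of those without.

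The difference grew with the CDH11 count in ldR-H460. A set of 20 genes highest in H460 over mdR-H460, CDH11 left out, summed to 46.0 CPM (44.3 to 47.9) in cells with no CDH11 UMI. It summed to 75.0 CPM (67.0 to 83.6) with 1 UMI, 117 CPM (103 to 132) with 2 or more and 143 CPM (117 to 173) with 3 or more, a subset of the former. The H460 library had 655 CPM of this set and mdR-H460 13.8 CPM. The 20 genes highest in ldR-H460 over H460 summed to 1723, 1575, 1281 and 996 CPM in the same cells, against 175 CPM in H460. A single member, CDK5RAP2, held 47.7% of the UMIs of the second set in ldR-H460, and RTN1 held 41.6% of those of the first. Without CDK5RAP2 the second set summed to 902, 815, 656 and 560 CPM, and without RTN1 the first summed to 25.7, 50.2, 85.3 and 114 CPM. In thinned cells 17 of the 20 genes of the second set were lower with CDH11, and FAM181B, ATOH8 and FAM83A were not. Cells rich in CDH11 thus lay between the 2 libraries for both sets. Only 1 of the 53 cells with 3 or more CDH11 UMIs carried a barcode shared with another library. Both sets were chosen from these libraries after their values were seen. Doublets were not called, and the part of mixed droplets was not tested. In H460 cells grouped by CDH11 UMIs in the same way, the first set summed to 633, 607, 671 and 676 CPM. The second summed to 203, 189, 167 and 164 CPM there, and KRT19 had 1295, 1501, 1816 and 1865 CPM.

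**Figure D4:**
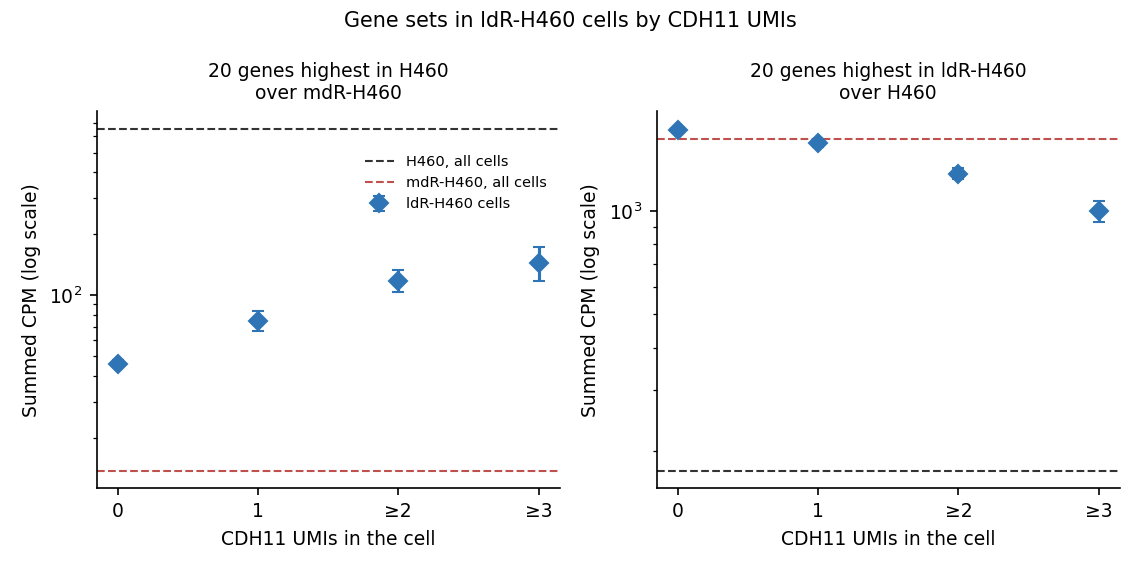
Summed CPM (log axes, differing scales) of the 20 genes highest in H460 over mdR-H460 (left) and of the 20 highest in ldR-H460 over H460 (right), in ldR-H460 cells grouped by CDH11 UMIs, with 95% counting intervals. Dashed lines give H460 and mdR-H460. The left set runs from 46.0 to 143 CPM and the right set from 1723 to 996 CPM.

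Fibroblasts express CDH11 and served as feeder cells in the reprogramming culture, so their markers were read beside it. The summed level of 16 fibroblast markers was 213 CPM in H460, 85.6 in mdR-H460 and 145 in ldR-H460. COL5A2, a fibrillar collagen chain, made up 193, 80.6 and 137 CPM of these. COL3A1, another such chain, had 160, 31 and 192 UMIs, the highest in ldR-H460. COL1A1 had 181, 144 and 69 UMIs. The matrix genes FBN1, with 300, 56 and 77 UMIs, and FBLN1, with 272, 74 and 60, were also listed for every library. THY1, PDGFRA, FAP and POSTN were not listed for any library, and COL1A2 had 3 UMIs in ldR-H460 alone. DCN was listed in H460 alone with 65 UMIs, and LUM had 308 UMIs in H460, 9 in mdR-H460 and was unlisted in ldR-H460. In thinned ldR-H460 cells the listed markers summed to 204 CPM with CDH11 and 150 CPM without, a ratio of 1.35 (1.18 to 1.55). In thinned H460 cells they summed to 247 CPM with CDH11 and 210 CPM without, a ratio of 1.18 (1.11 to 1.25).

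By closeness of pattern over the 3 libraries (Euclidean distance of centred log2 CPM, 6641 genes at 10 CPM or more in any library), the 5 genes nearest to CDH11 were FGF13, PRKCDBP, LSAMP, RTN1 and SLC38A5. FGF13 had levels of 58.0, 0.180 and 6.81 CPM in the parental, mid-term and long-term libraries, at a distance of 1.52. RTN1, a reticulon of the endoplasmic reticulum, had 24.5, 0.330 and 21.1 CPM. LSAMP, a neural adhesion protein, had 25.8, 0.150 and 0.860 CPM. Within ldR-H460 these genes did not all go with CDH11. The ratio between cells with and without CDH11 was 3.43 (2.12 to 5.33) for FGF13. It was 16.6 (5.13 to 52.5) for PRKCDBP and 8.15 (1.36 to 35.7) for SLC38A5, from only 7 and 3 UMIs in cells with CDH11. For RTN1 it was 1.17 (0.780 to 1.69), and for LSAMP 0.950 (0.0229 to 5.94). No such genes are given for CDH2, whose level in both derived lines is set by the floor.

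Of 18 type I and type II cadherins, 5 reached 1 CPM in a library, and CDH11 was the highest of them in H460. A UMI marks 1 captured 3′ end whatever the transcript's length, so levels of different genes were set side by side as CPM. CDH7 had 9.68, 5.69 and 8.70 CPM, in the order parental, mid-term, long-term library, which holds for the values that follow. CDH19, known from Schwann cell precursors, had 16.0, 9.80 and 8.48 CPM, and neither differed 2-fold from H460. CDH10 had 5.26, 1.41 and 3.37 CPM, 3.73-fold (2.96 to 4.73) lower in mdR-H460. CDH24 had 2.34, 2.79 and 5.33 CPM, 2.27-fold (1.87 to 2.77) higher in ldR-H460. Of the 5, 2 were at least 2-fold lower in mdR-H460, CDH11 and CDH10, and none higher (10.1% and 2.9% of all genes). In ldR-H460 CDH11 alone was lower and CDH24 alone higher (10.9% and 5.43% of all genes). CDH11, chosen with its values known, was in both counts of lower genes. CDH5, CDH9, CDH12 and CDH20 were not listed for any library.

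Of 37 other cadherin superfamily genes, 10 were measured. Of these 7 were at least 2-fold lower and none higher in mdR-H460 (10.1% and 2.9% of all genes), and in ldR-H460 4 were lower and 1 higher (10.9% and 5.43% of all genes). With TMM scaling 5 rather than 7 were lower in mdR-H460. CDH13, which lacks a cytoplasmic tail, had 58.9, 11.5 and 17.0 CPM. PCDH7, a protocadherin, had 3.57, 0.0750 and 0.645 CPM, and PCDH9 had 16.9, 3.99 and 10.1 CPM. DSC2, a desmosomal cadherin, had 11.1, 2.52 and 1.62 CPM. CDH11, CDH13, PCDH7 and PCDH9 were thus lowest in mdR-H460 and DSC2 lowest in ldR-H460. The median log2 ratio of the list was -1.22 in mdR-H460 and -0.75 in ldR-H460.

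Most adherens junction partners differed by less than 2-fold. Of 14 measured partners 4 were at least 2-fold lower in mdR-H460 (10.1% of all genes), 2 in ldR-H460 (10.9% of all genes) and none higher in either (2.9% and 5.43% of all genes). IQGAP1, among the 4, was at 2.01-fold and fell under 2-fold with TMM scaling. PKP4, at 1.96-fold higher in ldR-H460, passed 2-fold with that scaling. CTNNA1 had 69.5, 38.0 and 42.7 CPM in the same order. CTNNB1 (beta-catenin) had 28.3, 24.9 and 17.9 CPM, and CTNND1 (p120-catenin) 11.1, 7.29 and 12.9 CPM. JUP, the plakoglobin gene, had 24.6, 6.11 and 13.5 CPM, 4.03-fold (3.62 to 4.51) lower in mdR-H460 and 1.82-fold (1.67 to 1.98) lower in ldR-H460. CTNND2 (delta-catenin, best known from neurons) had 3.55, 0.0901 and 0.165 CPM, 39.4-fold (17.8 to 109) and 21.5-fold (11.5 to 45.4) lower. PVRL3 (nectin-3) had 1.60 CPM in H460 and was at the floor in the derived lines, at least 35.6-fold and 32.3-fold lower. In ldR-H460 both ratios were larger than that of CDH11. The list's median log2 ratio was -0.61 in mdR-H460 and -0.44 in ldR-H460.

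**Figure D5:**
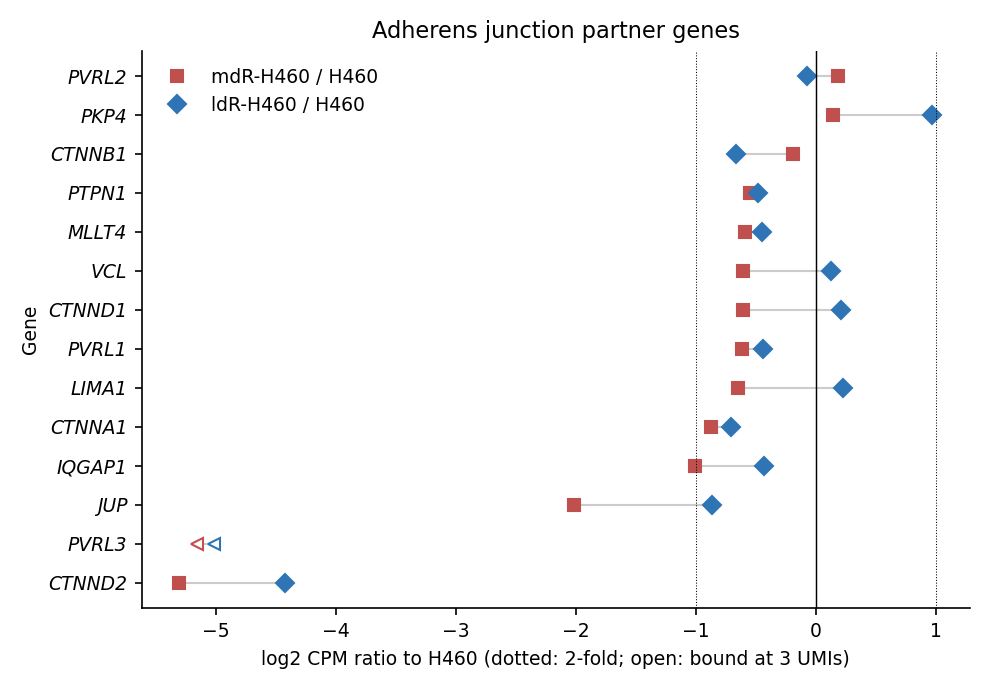
log2 CPM ratio to H460 of 14 adherens junction partner genes in mdR-H460 (squares) and ldR-H460 (diamonds). Dotted lines mark 2-fold and open triangles are bounds at 3 UMIs. CTNND2 and PVRL3 lie far to the left, JUP follows in mdR-H460, and the other genes lie near or inside the 2-fold lines.

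Among 13 measured repressors of CDH1, ZEB2 alone passed 2-fold in either derived line. A single lower gene of 13 is near the share of all genes (10.1% in mdR-H460 and 10.9% in ldR-H460). ZEB2, a zinc-finger repressor of CDH1, had 19.8 CPM in H460, 0.811 in mdR-H460 and 3.09 in ldR-H460, the same order as CDH11. It was 24.4-fold (18.6 to 32.7) lower in mdR-H460 and 6.40-fold (5.49 to 7.50) lower in ldR-H460. ZEB1 had 6.84, 7.13 and 9.10 CPM and SNAI2 9.47, 6.18 and 4.88 CPM. TWIST2 had 12.1, 7.35 and 10.4 CPM. In H460 ZEB2 was found in 10.4% (9.14 to 11.8) of thinned cells with CDH11 and in 8.36% (7.11 to 9.76) of those without. TCF4, a basic helix-loop-helix factor, had 9.05, 16.1 and 17.5 CPM and passed 2-fold in both derived lines with TMM scaling.

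Epithelial and mesenchymal genes differed in both directions beside CDH11. Over all genes 2.9% were higher and 10.1% lower by 2-fold in mdR-H460, and 5.43% and 10.9% in ldR-H460. Of 16 measured epithelial genes 3 were at least 2-fold higher and 2 lower in mdR-H460, and 2 were higher and 3 lower in ldR-H460. DSP (desmoplakin) had 0.212, 12.98 and 7.21 CPM, against KRT19 at 1696, 194 and 40.3 CPM. Of 23 measured mesenchymal genes, 1 was at least 2-fold higher and 7 lower in mdR-H460, and 3 were higher and 6 lower in ldR-H460. COL6A1, a collagen VI chain, had 10.9, 1.34 and 2.00 CPM, whereas TPM2, a tropomyosin, had 30.4, 197 and 258 CPM. COL12A1 had 0.317, 0.525 and 7.08 CPM. With TMM scaling the epithelial counts in ldR-H460 were 3 higher and 2 lower, and the mesenchymal counts in mdR-H460 were 2 higher and 5 lower.

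Of 19 measured genes of cadherin shedding and turnover, 2 were at least 2-fold lower in mdR-H460, near the share of all genes (10.1%), 3 in ldR-H460 (10.9% of all genes) and none higher. FURIN, a proprotein convertase that can process cadherin precursors, had 11.8, 1.76 and 1.39 CPM. Of 10 measured beta-catenin target genes, 3 were at least 2-fold lower in each derived line (10.1% and 10.9% of all genes) and none higher. SOX9, a transcription factor, had 28.7, 5.57 and 1.97 CPM, and LGR5, a stem cell receptor, 1.30, 0.105 and 0.116 CPM.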

How the data were processed

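UMI counts per gene and cell for 3 libraries were analysed as deposited, per the file headers and values. They came from Chromium 3′ v2 libraries, per the labels' protocols. The submitters' processing notes name Cell Ranger 3.0.2, Seurat 3.0 and GRCh38 without their roles, and the sources used here give no filter on cells. Detected genes per cell reached 4987 in H460, 4993 in mdR-H460 and 3998 in ldR-H460.

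Counts were summed per library and divided by the total (CPM). Ratios carry exact 95% counting intervals, and shares carry Clopper-Pearson intervals. Unlisted genes were set to 3 UMIs for bounds. Genes that reached 1 CPM in either library of a pair entered counts of 2-fold differences. Shares were compared after thinning cells to 5000 UMIs. Clusters and doublets were not called. Alternatives were edgeR 4.0.16 TMM and DESeq2 1.42.0 size factors, other totals, depths and cell filters. Fold calls were tested on simulated data, with larger changes and higher levels than the 2-fold and 1 CPM limits. Calls near these limits and bounds at 3 UMIs were not covered.

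The 3 genes, the lists and the sets were chosen with earlier results of these data known. Named genes were all measured catenins and cadherins, for each list the 4 measured genes at most that had the largest ratios, the 5 genes nearest in pattern to CDH11, and the 6 leading genes in each direction between cells with and without CDH11. ZEB1, SNAI2, TWIST2 and markers outside that rule were named after their values were seen. Comparing ldR-H460 cells by CDH11, although fewer than 10% of thinned cells had it, and leaving out the member with most UMIs of each set were added after seeing the data.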

Additional observations from a re-analysis of the deposited data

How the results depend on the processing

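No paired analysis was possible because each group has 1 library. Of 99 recomputed values 77 stayed within their main interval or within 1.5 times the main count, 22 moved and no single value turned its direction. Relative to CPM, TMM added 0.18 to log2 ratios of mdR-H460 to the parental library, 0.12 to those of ldR-H460, and -0.07 between the derived lines. CDH11 in ldR-H460 against H460 was 12.8-fold lower with TMM. Thinning lowered the bounds for CDH2 to at least 4.03-fold in mdR-H460 and at least 4.70-fold in ldR-H460, as fewer UMIs remained.

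The share of cells with CDH11 rose with depth. At 3000 and 10000 UMIs and without thinning it was 39.9%, 74.7% and 75.9% in H460 and 3.27%, 8.26% and 9.52% in ldR-H460. CDH2 in H460 was at 0.817% without thinning.

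Counts of genes past 2-fold depended on the CPM minimum, since it sets how many genes enter. In mdR-H460 against H460, 348 were higher and 1218 lower, 117 and 451 at a minimum of 10 CPM, and 1015 and 2376 with no minimum. The split was 470 higher and 877 lower with TMM and 468 and 890 with DESeq2 factors. In ldR-H460 against H460, 660 were higher and 1323 lower, 218 and 523 at 10 CPM, and 1507 and 2514 with no minimum. In ldR-H460 against mdR-H460, 607 were higher and 522 lower, 159 and 191 at 10 CPM, and 1469 and 1348 with no minimum. For this pair the balance turned, with fewer higher than lower genes at 10 CPM, with TMM (538 and 587) and with DESeq2 factors (524 and 592). Weighting cells equally was not run for CDH2, and no alternative was run for CDH1.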
